A study of Mus musculus with 6 samples.

Results

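The genes described are 10 mouse genes of lipid scavenging and lipid breakdown, taken by symbol from a table of 55487 genes. They are Cd36, Msr1, Trem2, Gpnmb, Lpl, Lipg, Apoe, Fabp4, Fabp5 and Plin2, each present once. They were chosen by name with their rlog values (regularized log, log2 scale) in the comparison below already known. The table holds 6 libraries from mouse bone marrow, made from cells that carry Kit, a receptor of blood stem and progenitor cells. In 3 libraries the cells overexpressed wild type MLLT3 from a lentivirus (WT), and in the other 3 they overexpressed MLLT3 carrying K63E and K67E (DM). All 6 cultures were sorted and kept in methylcellulose for 8 days, where the medium held 10 ng/mL Flt3L, with EPO, SCF, GM-CSF, IL-3, IL-6 and IL-11 each at 20 ng/mL, and with gentamycin. All also received 4-hydroxytamoxifen at 200 nM, by which the endogenous Mllt3 gene was to be deleted, so both groups are overexpression on a background meant to lack that gene. The labels put all libraries in batch 1, and do not say whether replicates came from separate animals or cultures, so p-values measure the spread between these libraries, which may be technical.

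Macrophages take up modified lipoproteins and free fatty acids through scavenger receptors, and release fatty acids from triglyceride particles with secreted lipases. Inside the cell, small binding proteins carry the fatty acids, droplets coated by perilipins store them, and apolipoprotein E carries cholesterol out again. Macrophages loaded with lipid in artery wall, fat or injured brain are known for high levels of several of these genes, under the control of the receptor TREM2 and of the lipid sensors PPAR-gamma and LXR. MLLT3 is a subunit of transcription elongation complexes whose YEATS domain, where both substitutions lie, binds acylated histones.

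Under the call rule used for all genes (limma, adjusted p under 0.05), 9 of the 10 genes were called, where 13.9% of all tested genes were. In DM 8 were higher than in WT (9.2% of all tested genes) and 1 was lower (4.71%). The groups were apart, with no overlap, for 9 of the 10, against 35.8% of all tested genes (21.5% higher, 14.3% lower). As the choice of genes used this comparison, nothing is read from these counts. The 8 were higher by 0.55 to 1.13 on the log2 scale (1.46-fold to 2.19-fold). These were the receptors Cd36, Msr1, Trem2 and Gpnmb, the lipase Lpl, the binding proteins Fabp4 and Fabp5, and the droplet protein Plin2. Lipg, the other secreted lipase, was 5.58-fold lower. Apoe lay at a low level in both groups and did not separate them. The 10 genes were chosen with this comparison known, so their calls and differences are a description, and no p-value is given for them.

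**Figure D1:**
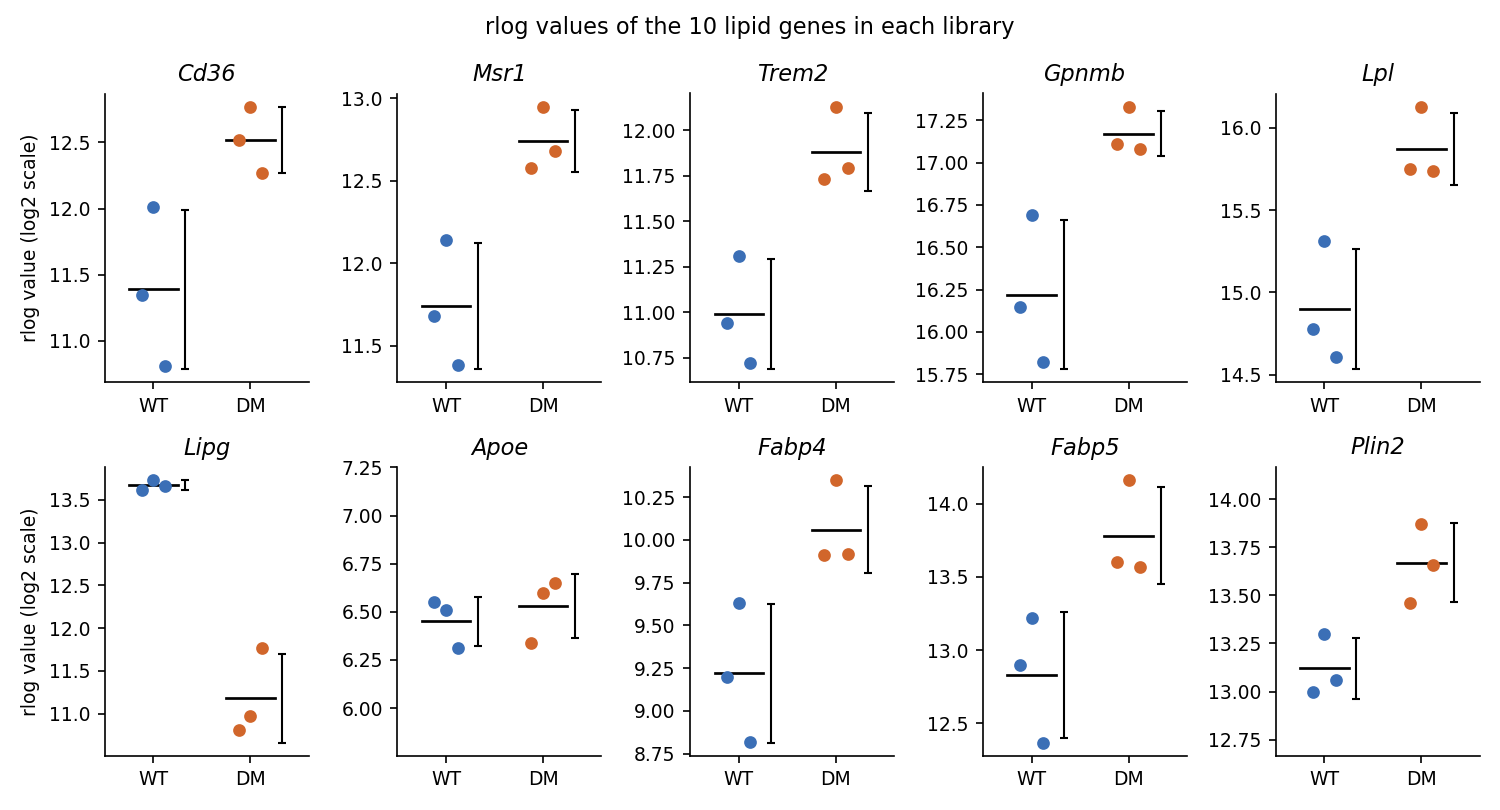
Each panel plots 1 gene, with the regularized log value (log2 scale) on the y axis and the group on the x axis; points are libraries in replicate order, lines are means and side bars are ± 1 SD (n = 3). The y axes do not start at 0 and differ between panels. DM lies above WT without overlap in 8 panels, below it for Lipg, and overlaps it for Apoe.

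The rlog values are normalized for library size and pull weakly counted genes toward their own mean, so differences at low levels come out too small. With no counts in the table, sequencing depth is unknown. The table ran from -1.97 to 21.88, and 18766 genes with a mean of at least 3 were tested with limma at a Benjamini-Hochberg adjusted p under 0.05. The median difference over all tested genes was 0.01. Of the 2611 genes called, 66.1% were higher in DM, or 51.3% of 2654 after quantile normalization. Mllt3, read first as the targeted gene, was 12.87, 12.6 and 12.44 in WT and 12.44, 12.03 and 11.99 in DM, a difference of -0.48 (limma adjusted p 0.0448) that missed the threshold in 6 of 12 alternatives. These values do not separate vector from endogenous transcripts. Kit lay between 14.29 and 14.9 in all 6 libraries.

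The start regions of Cd36, Trem2, Plin2 and Gpnmb are shown because these 4 were the raised genes whose promoters were found. Promoters of 5 members were matched by symbol in the RefSeq table (GRCm38.p6), the fifth being Apoe. The 250 bases before each start are printed 5′ to 3′ on the strand of the gene, in lower case. Capitals mark AGGTCA or its reverse complement, the core to which PPAR and LXR receptors bind with RXR, and TGANTCA. The latter is a loose form of the AP-1 site, which has C or G at N. Cd36 is on the minus strand (chr5:17835897-17836146, a start inside the annotated gene), Trem2 on the plus strand (chr17:48346151-48346400), Plin2 on the minus strand (chr4:86670060-86670309) and Gpnmb on the plus strand (chr6:49036268-49036517).
Cd36: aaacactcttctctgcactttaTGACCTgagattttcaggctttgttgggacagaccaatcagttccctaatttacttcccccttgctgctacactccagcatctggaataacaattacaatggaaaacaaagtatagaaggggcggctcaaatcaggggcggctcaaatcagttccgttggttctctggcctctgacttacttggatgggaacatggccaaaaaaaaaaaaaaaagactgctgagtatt
Trem2: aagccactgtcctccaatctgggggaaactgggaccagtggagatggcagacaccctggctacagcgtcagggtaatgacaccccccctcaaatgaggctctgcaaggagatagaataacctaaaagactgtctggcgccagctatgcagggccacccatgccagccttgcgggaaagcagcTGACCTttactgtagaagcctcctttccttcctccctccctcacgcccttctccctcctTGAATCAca
Plin2: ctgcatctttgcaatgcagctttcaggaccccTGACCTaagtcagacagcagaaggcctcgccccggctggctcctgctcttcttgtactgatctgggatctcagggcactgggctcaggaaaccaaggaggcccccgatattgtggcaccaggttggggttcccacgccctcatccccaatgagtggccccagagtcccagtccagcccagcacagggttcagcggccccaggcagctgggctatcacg
Gpnmb: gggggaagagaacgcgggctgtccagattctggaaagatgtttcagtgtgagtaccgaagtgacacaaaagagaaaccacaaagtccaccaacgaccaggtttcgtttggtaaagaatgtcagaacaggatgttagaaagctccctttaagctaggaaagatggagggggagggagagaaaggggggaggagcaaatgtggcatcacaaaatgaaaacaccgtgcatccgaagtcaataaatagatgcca
The core AGGTCA was found, on the reverse strand, from 228 to 223 bases before the start of Cd36, from 218 to 213 before that of Plin2 and from 68 to 63 before that of Trem2. It was not in the windows of Gpnmb or Apoe. Over all 32851 RefSeq promoters, 14.0% held it on either strand. The paired forms AGGTCANAGGTCA and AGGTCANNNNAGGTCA, which contain the core, were in 0.0335% and 0.0152% of promoters and in none of these 5 genes. The loose pattern TGANTCA, which reads the same on both strands, lay 9 to 3 bases before the start of Trem2. Its letters there were TGAATCA, with A at N, so not the usual AP-1 site. The loose pattern was in 6.75% of all promoters. GAGGAAGT, bound by PU.1, and CACGTG, bound by MiT/TFE factors, were in none of the 5 genes, against 2.44% and 6.02% of all promoters. These matches describe letters and do not show binding.

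Cd36 (ENSMUSG00000002944.15; chromosome 5, 17781690 to 17888801, minus strand) encodes a scavenger receptor and fatty acid transporter of macrophages and platelets. Its rlog values were 11.35, 12.01 and 10.81 in WT and 12.52, 12.77 and 12.27 in DM. Every DM library was above every WT library, with 0.26 between the nearest, although WT replicates spread over 1.2. WT averaged 11.39 ± 0.602 and DM 12.52 ± 0.251 (SD, n = 3 each), which differ by 1.13 (SE 0.248). Among all tested genes this was the difference ranked 4 from the top. It was 0.84 without WT replicate 3 and 1.44 without WT replicate 2.

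Msr1 (ENSMUSG00000025044.16; chromosome 8, 39581685 to 39642673, minus strand) encodes the class A scavenger receptor, which takes up oxidized and acetylated lipoprotein. Its rlog values were 11.68, 12.14 and 11.38 in WT and 12.58, 12.95 and 12.68 in DM. The gap of 0.44 between the highest WT and the lowest DM library was the widest among the 8 raised genes. The difference of means was 1.0 (SE 0.169), from 11.74 ± 0.382 to 12.74 ± 0.188 (SD, n = 3).

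Trem2 (ENSMUSG00000023992.14; chromosome 17, 48346401 to 48354147, plus strand) encodes a receptor for lipids and lipoproteins that signals through the adaptor TYROBP. Its rlog values were 10.94, 11.31 and 10.72 in WT and 11.73, 12.13 and 11.79 in DM. The groups were 0.42 apart, and the difference of means was 0.89 (SE 0.149). Gpnmb (ENSMUSG00000029816.10; chromosome 6, 49036546 to 49070929, plus strand) encodes a membrane glycoprotein of lysosome-rich macrophages. Its rlog values were 16.15, 16.69 and 15.82 in WT and 17.11, 17.33 and 17.08 in DM. The 3 DM libraries lay within 0.25 of each other, the tightest DM group of the 8 raised genes, and the difference of means was 0.96 (SE 0.194).

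Lpl and Lipg encode secreted lipases of the same family, which act at the outer surface of cells: lipoprotein lipase cuts mainly triglycerides, and endothelial lipase mainly phospholipids of high density lipoprotein. Lpl (ENSMUSG00000015568.16; chromosome 8, 68880491 to 68907448, plus strand) read 14.78, 15.31 and 14.61 (rlog) in WT, against 15.75, 16.13 and 15.74 in DM. All DM libraries were higher, by at least 0.43, and the difference of means was 0.97 (SE 0.177). Lipg (ENSMUSG00000053846.5; chromosome 18, 74939322 to 74961263, minus strand) read 13.61, 13.73 and 13.66 in WT, against 10.81, 10.97 and 11.77 in DM. The WT libraries were nearly equal, while DM replicate 3 stood 0.96 above DM replicate 1, and still 1.84 below the lowest WT library. The mean fell by 2.48 on the log2 scale (SE 0.202), from 13.67 ± 0.0598 to 11.18 ± 0.516 (SD, n = 3), the difference ranked 6 from the bottom of all tested genes. It was -2.78 without DM replicate 3.

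Levels of the 2 lipases were compared per length, as the rlog value minus log2 of the main transcript's length in kb (4115 bases for Lpl, 3787 for Lipg). On this scale Lpl exceeded Lipg by 1.05, 1.46 and 0.83 in WT and by 4.82, 5.03 and 3.85 in DM. In linear terms Lpl was at 2.07, 2.75 and 1.78 times the level of Lipg per kb in WT, and at 28.2, 32.7 and 14.4 times in DM. With the length of all annotated exons instead, the mean ratios were 1.06 in WT and 11.6 in DM. The size of the ratio thus depends on the length used, while the change between groups, by construction, does not.

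**Figure D2:**
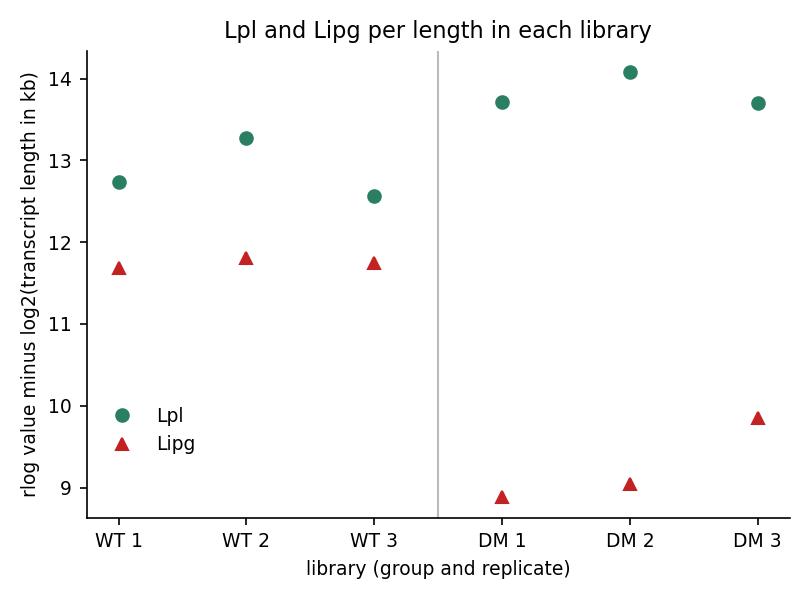
The y axis is the rlog value minus log2 of the transcript length in kb and the x axis the 6 libraries; circles are Lpl and triangles are Lipg, 1 point for each library. The points are 0.83 to 1.46 apart in WT and 3.85 to 5.03 apart in DM.

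Apoe (ENSMUSG00000002985.16; chromosome 7, 19696109 to 19699188, minus strand), the main apolipoprotein made by macrophages, read 6.55, 6.51 and 6.31 (rlog) in WT, against 6.34, 6.6 and 6.65 in DM. The groups overlapped, and the difference of means was 0.08 (SE 0.0984). Per kb of transcript, Apoe was the lowest of the 10 genes in both groups, at 5.96 ± 0.127 in WT and 6.04 ± 0.165 in DM (SD, n = 3). The neighbouring apolipoprotein genes were lower still: Apoc1 lay between 1.44 and 1.49, Apoc4 between 1.59 and 1.73, and Apoc2 between -1.49 and -1.48.

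Fabp4 and Fabp5 encode small cytoplasmic carriers of fatty acids, and lie in the same cluster on chromosome 3. Fabp4 (ENSMUSG00000062515.3; 10204088 to 10208576, minus strand) read 9.2, 9.63 and 8.82 (rlog) in WT, against 9.91, 10.35 and 9.92 in DM. Fabp5 (ENSMUSG00000027533.10; 10012548 to 10016607, plus strand) had 12.9, 13.22 and 12.37 in WT and 13.6, 14.16 and 13.57 in DM. Neither gene's groups overlapped, and the differences of means were 0.84 (SE 0.186) for Fabp4 and 0.95 (SE 0.21) for Fabp5. The value of Fabp5 is uncertain as far as reads were shared with its processed pseudogene Fabp5l2, which lay between 1.5 and 1.57. The other carriers in the cluster, Fabp9 (0.3 to 0.35), Fabp12 (2.28 to 2.37) and Pmp2 (-1.97 in all), were below the level tested.

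Plin2 (ENSMUSG00000028494.12; chromosome 4, 86648386 to 86670060, minus strand) encodes the perilipin that coats lipid droplets in most cell types. Its rlog values were 13.0, 13.3 and 13.06 in WT and 13.46, 13.87 and 13.66 in DM. The groups were 0.16 apart, the narrowest gap of the 8 raised genes, and the difference of means was 0.55 (SE 0.117). After quantile normalization it was 0.38.

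Per kb of main transcript, the order in WT was Gpnmb (14.33), Lpl (12.86), Fabp5 (12.85), Plin2 (12.2), Lipg (11.75), Msr1 (11.23), Trem2 (10.87), Cd36 (9.63), Fabp4 (9.38) and Apoe (5.96). Of neighbours in this order, Lpl and Fabp5, Msr1 and Trem2, and Cd36 and Fabp4 differed by less than the larger of their SDs. Lipg went from place 5 in WT to place 9 in DM, with Apoe alone below it, and the rest kept their order. With all annotated exons as the length, Lipg was in place 3 in WT and 8 in DM.

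The 9 calls depended in part on which libraries were kept, and a fit that leaves out a library also has less power. Without DM replicate 2, 5 of the 10 genes met the rule (not Cd36, Fabp4, Fabp5 or Plin2), and without WT replicate 1, 6 did (not Cd36, Fabp4 or Plin2). The median difference of the 10 genes was 0.92, or 0.78 after quantile normalization.

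The 8 raised genes also shared part of their order among replicates. WT replicate 2 was the highest WT library and DM replicate 2 the highest DM library for 8 of 8. WT replicate 3 was the lowest WT library for 7 of 8. The lowest DM library was replicate 1 for 4 and replicate 3 for 4. Highest in both of these replicates were 18.6% of all tested genes, 4 of 9 tested macrophage markers (44.4%) and 15.0 of 19.0 tested companion genes of lipid-laden macrophages (78.9%). The nearest pair of members was Msr1 and Lpl, whose 6 values, each gene centred on its mean, were a Euclidean distance of 0.139 apart. Fabp4 and Fabp5 were 0.204 apart, and Cd36 and Gpnmb 0.372. Lipg was 4.61 from Cd36, and 3.19 from its nearest member, Apoe.

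**Figure D3:**
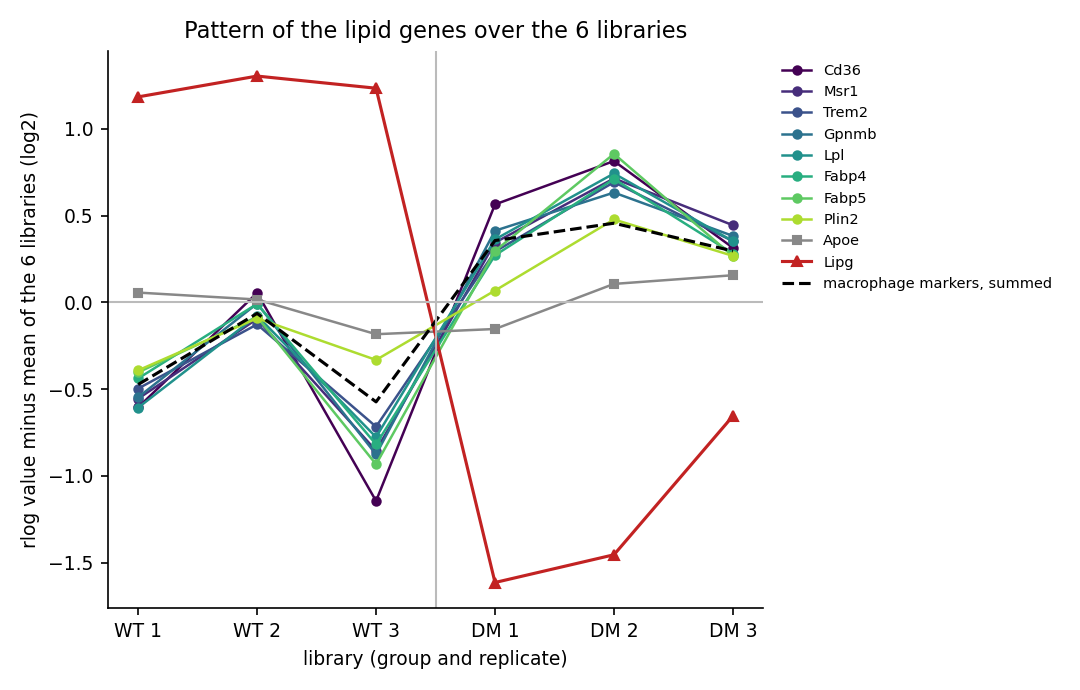
The y axis is the rlog value minus the gene's mean over the 6 libraries (log2) and the x axis the libraries; each line joins the values of 1 gene as a guide to the eye. The dashed line is the summed level of 12 macrophage markers, treated in the same way. The 8 raised genes peak in replicate 2 of each group. Lipg is high in WT, where its values lie within 0.12 of each other, and low in DM, where replicate 3 is highest. Apoe stays near 0.

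By the same distance over the 6 libraries, the tested genes most like Cd36 were Maoa (0.207), a monoamine oxidase, Fstl1 (0.247), a secreted glycoprotein, and Marco (0.272), another scavenger receptor. Those most like Lipg were Fcnb (0.381), a ficolin of neutrophil granules, Stfa1 (0.485), a stefin with near-identical copies, and Plac8 (0.569). Lipg and these 3 genes were lower in DM by 2.21 to 2.8 on the log2 scale.

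Most tested markers of macrophages, which express most of the 8 raised genes, also rose in DM. Of 12 macrophage markers, 9 were tested and 6 rose, with none falling under the rule. C1qb (-0.05) and C1qc (-0.09) had slightly lower means in DM, and Fcgr1 was at 0.28 (limma adjusted p 0.113). Adgre1 rose by 0.63 (limma adjusted p 0.00423) and Csf1r by 0.73 (limma adjusted p 0.00415). Their summed level ranged from 14.19 to 14.7 in WT and from 15.06 to 15.22 in DM. The complement gene C1qa, an abundant transcript of tissue macrophages, was below the level tested, between 2.45 and 2.56, as were Vsig4 and Timd4, and C1qb and C1qc were at or below 3.64 on average. Without DM replicate 2, 4 markers rose. In bulk RNA, more cells of a type and more RNA per cell cannot be told apart, and the part of these markers in the result was not tested.

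Most markers of the neutrophil lineage fell in DM, as Lipg did. Of 12 tested, 10 met the rule, all lower. Mmp8, a collagenase of late granules named after its value was seen, was at 0.5 (limma adjusted p 0.0521) with DM above WT in all libraries, and met the rule as higher in 4 of 12 alternatives. Mpo, the myeloperoxidase of early granules, fell by 4.23 on the log2 scale (limma adjusted p 0.000444). The summed level of the list ranged from 18.6 to 19.04 in WT and from 17.29 to 18.11 in DM. Its highest libraries were WT replicate 3 and DM replicate 3, those of Lipg were WT replicate 2 and DM replicate 3, and Mpo was at 11.1 in both DM replicate 1 and DM replicate 3. The part of these cells in the result was not tested. The fat cell gene Adipoq lay between 1.47 and 1.55, below the level tested. Endothelial markers differed in level: Cdh5 lay between 3.97 and 4.23 with a difference of -0.15 (limma adjusted p 0.0994), Kdr between 6.76 and 7.27, and Pecam1, which blood cells also express, between 12.51 and 12.77. The summed endothelial level, which came mostly from Pecam1, was 12.61 to 12.76 in WT and 12.57 to 12.82 in DM. The part of endothelial cells in the result was not tested. Of 4 tested fat cell markers 0 met the rule with limma and 1 had an unadjusted p under 0.05, and 1 of 6 endothelial markers, Egfl7, did, at -0.39 (limma adjusted p 0.0102); Egfl7, Kdr and Pecam1 were named after their values were seen.

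Beyond the 10 genes, 9 lists, drawn up with earlier results of these data known, held 172 genes, of which 147 were tested. They hold genes of the same pathways, TREM signalling genes, and companion genes of lipid-laden macrophages, not all of them lipid genes. In DM 57 of the tested genes rose and 8 fell, 44.2% of those tested against 13.9% of all genes. Their median difference was 0.17 against 0.01. Among genes with a mean of at least 5, 69 of 124 in the lists were called, against 3018 of 13448 tested. As the lists were drawn up with these data known, nothing is read from the excess. The list of companion genes alone held 17 of the 57, from 19 tested. The count of 65 became 34 when WT replicate 1 was left out, and 33 when DM replicate 2 was.

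**Figure D4:**
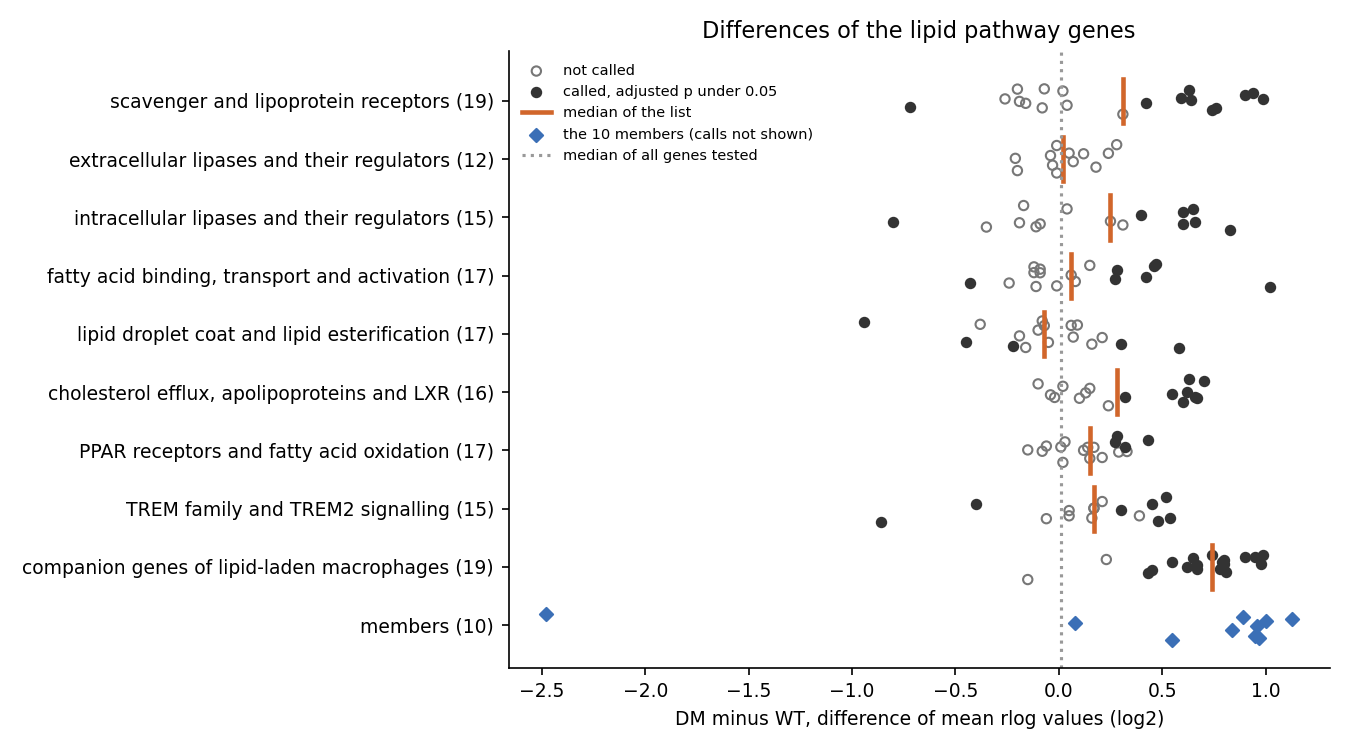
The x axis is the difference of mean rlog values, DM minus WT (log2), and each row is a list with its number of tested genes; points are genes, filled where the limma adjusted p was under 0.05. Orange bars are list medians and diamonds are the 10 genes described above, drawn without their calls. Most filled points lie to the right of 0, and the row of extracellular lipases has none.

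Other scavenger and lipoprotein receptors rose together, with 9 of 19 tested genes higher, 1 lower and a median of 0.31. Marco rose by 0.99 (limma adjusted p 0.0342) and Cd68, a lysosomal scavenger receptor, by 0.94 (limma adjusted p 0.00777). Lrp1, a large endocytic receptor for apolipoprotein E, rose by 0.9 (limma adjusted p 0.00797), and its chaperone Lrpap1 by 0.76 (limma adjusted p 0.016). The member that fell was the sorting receptor Sorl1, at -0.72 (limma adjusted p 0.00344), named after its value was seen. The 9 higher genes were 4 without WT replicate 1 or DM replicate 2 and 6 without WT replicate 3. Marco, which the macrophage list holds too, missed the threshold without WT replicate 1, WT replicate 3, DM replicate 1 or DM replicate 2 (limma adjusted p 0.0528 to 0.113), and Lrpap1 without WT replicate 1 or DM replicate 2 (0.0536 and 0.0635).

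Among regulators and relatives of the extracellular lipases, 0 of 12 tested genes met the rule with limma, and 3 (Sel1l, Pcsk5 and Pcsk6, named after their values were seen) had an unadjusted p under 0.05. The median was 0.02, and 3 genes met the rule without WT replicate 2. Lmf1, which folds both lipases, was at 0.05 (limma adjusted p 0.747), and Angptl4, which inactivates lipoprotein lipase, was at 0.28 (limma adjusted p 0.202). Gpihbp1, which anchors lipoprotein lipase on capillaries, lay between 2.56 and 2.75, below the level tested.

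Intracellular lipases and their regulators had 6 of 15 genes higher and 1 lower, with a median of 0.25. Lipa, the acid lipase that digests lipoprotein lipids in lysosomes, rose by 0.83 (limma adjusted p 0.0108). Ddhd1, a phospholipase, rose by 0.66 (limma adjusted p 0.0079), and Mgll, the monoglyceride lipase, by 0.65 (limma adjusted p 0.0137). The gene that fell was G0s2, an inhibitor of the droplet lipase ATGL, at -0.8 (limma adjusted p 0.00956). Mgll missed the threshold without WT replicate 1 (limma adjusted p 0.0545) or DM replicate 2 (limma adjusted p 0.0554).

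Genes of fatty acid transport and activation had 6 of 17 higher and 1 lower, with a median of 0.06. Cav1, the caveolin to which CD36 is known to couple, rose by 1.02 (limma adjusted p 0.00743). Slc27a1, a fatty acid transporter, rose by 0.46 (limma adjusted p 0.00728), and Acsl1, which activates fatty acids, by 0.47 (limma adjusted p 0.0265). Another activating enzyme, Acsl3, fell by 0.43 on the log2 scale (limma adjusted p 0.0138). The 6 higher genes were 3 without WT replicate 1, DM replicate 1 or DM replicate 2. Acsl1 missed the threshold when any 1 of these libraries or WT replicate 3 was left out (limma adjusted p 0.0615 to 0.105), and Acsl3 without WT replicate 1 or DM replicate 2 (0.0512 and 0.0504).

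Droplet coat and esterification genes were split, with 2 of 17 higher, 3 lower and a median of -0.07. Dgat2, which makes triglyceride, fell by 0.94 on the log2 scale (limma adjusted p 0.00569), and Agpat2, an acyltransferase earlier in the same pathway, by 0.45 (limma adjusted p 0.00921). Soat1, which esterifies cholesterol, rose by 0.58 (limma adjusted p 0.0137). Bscl2, which encodes the droplet assembly protein seipin, rose by 0.3 (limma adjusted p 0.037) but missed the threshold in 8 of 12 alternatives. Of the other perilipins, Plin3 was at 0.07 (limma adjusted p 0.617) and Plin5 at -0.22 (limma adjusted p 0.0497), both named after their values were seen, and Plin5 missed the threshold in 9 of 11 alternatives. Without WT replicate 1 or DM replicate 2, 0 of the list rose and 2 fell with limma, and Soat1 missed the threshold (0.0534 and 0.0583).

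Cholesterol efflux, apolipoprotein and LXR genes had 8 of 16 higher and none lower, with a median of 0.28. Nr1h3, which encodes LXR-alpha, rose by 0.7 (limma adjusted p 0.0108). The cholesterol exporters Abca1 and Abcg1 rose by 0.62 (limma adjusted p 0.0121) and 0.67 (limma adjusted p 0.0142), and Npc1, which moves cholesterol out of lysosomes, by 0.63 (limma adjusted p 0.00756). Ch25h, which makes an oxysterol, rose by 0.66 (limma adjusted p 0.0455) but missed the threshold in 9 of 12 alternatives. The 8 higher genes were 5 without WT replicate 1, DM replicate 2 or DM replicate 3, where Abcg1 also missed it (limma adjusted p 0.0512 to 0.0581).

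Of the PPAR and fatty acid oxidation genes, 4 of 17 rose and none fell, with a median of 0.15. Among them the coactivator Ppargc1b rose by 0.32 (limma adjusted p 0.0347), Etfdh by 0.28 (limma adjusted p 0.0426) and Ppard by 0.27 (limma adjusted p 0.0317). Pparg itself was at 9.83, 10.3 and 10.08 in WT and 10.16, 10.54 and 10.38 in DM, with overlapping groups and a difference of 0.29 (limma adjusted p 0.167). Without WT replicate 1 or DM replicate 2, 0 of the list met the rule with limma. Ppargc1b, Etfdh and Ppard also missed the threshold without WT replicate 3, DM replicate 1 or DM replicate 3. Pparg met it without WT replicate 2 (0.41, limma adjusted p 0.0485).

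Around Trem2, 5 of 15 genes of the TREM family and its signalling rose and 2 fell, with a median of 0.17. The adaptor Tyrobp rose by 0.48 (limma adjusted p 0.0149), Pik3ap1, an adaptor for PI3 kinase, by 0.52 (limma adjusted p 0.00984), and Adam17, a protease that sheds TREM2, by 0.54 (limma adjusted p 0.00636). The family members that lie beside Trem2 on chromosome 17 did not share its difference of 0.89. Trem3 fell by 0.86 on the log2 scale (limma adjusted p 0.00356) and Treml2 by 0.4 (limma adjusted p 0.00928), while Trem1 was at -0.06 (limma adjusted p 0.834), Treml1 at 0.17 (limma adjusted p 0.372) and Treml4 at 0.39 (limma adjusted p 0.0596), which met the threshold in 4 of 12 alternatives. Treml1, Treml2, Treml4 and Trem1 were named for their position, after their values were seen. The 5 higher genes were 2 without WT replicate 1 or DM replicate 2, where Tyrobp also missed the threshold (limma adjusted p 0.069 and 0.0634).

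Genes that accompany these members in lipid-laden macrophages had 17 of 19 tested genes higher and none lower, with a median of 0.74. Atp6v0d2, a subunit of the lysosomal proton pump, rose by 0.99 (limma adjusted p 0.0114), the integrin Itgax by 0.98 (limma adjusted p 0.0108), Spp1, which encodes osteopontin, by 0.95 (limma adjusted p 0.0137) and the glucan receptor Clec7a by 0.9 (limma adjusted p 0.00838). The 2 that did not meet the rule were Lgals1, at 0.23 (limma adjusted p 0.0906), and Cst7, at -0.15 (limma adjusted p 0.292), both named after their values were seen. The 17 were 9 without WT replicate 1 and 8 without DM replicate 2, where Spp1 missed the threshold (limma adjusted p 0.0501 and 0.0509).

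The nearest tested protein-coding genes on either side of each member were read from GENCODE M21. These were 19 genes, whose differences ran from -0.26 to 0.46 with a median of 0.01. Of these, 5 met the rule, 4 higher and 1 lower, where 13.9% of all tested genes did (9.2% higher, 4.71% lower). Acaa2 and Rpl17, beside Lipg, were at 0.01 (limma adjusted p 0.957) and -0.12 (limma adjusted p 0.319). Sema3c and Gnai1, beside Cd36, were at -0.03 (limma adjusted p 0.67) and -0.1 (limma adjusted p 0.701). The largest differences were in Dennd4c, 78.5 kb from Plin2, which rose by 0.46 (limma adjusted p 0.0126, or 0.0563 without DM replicate 2), and Tusc3, 417 kb from Msr1, which rose by 0.41 (limma adjusted p 0.00906). No other annotated gene overlapped any of the 10. These 6 neighbours were named by position or after their values were seen.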

How the data were processed

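The authors deposited 1 table of rlog values on the log2 scale, read as such from its name and its values, since no label states the transform. The submitters' processing notes name cutadapt 2.6, STAR 2.7.3, DESeq2 1.30.0 and the build mm10. The counting tool, annotation and strand setting are not given in the sources used here. The 142699 lines were merged to 55487 genes, and coordinates, lengths and neighbours came from GENCODE M21 (GRCm38), by identifier. DM was compared with WT by limma 3.58.1 in R 4.3.3 (lmFit, eBayes with a mean-variance trend, no covariate) on genes with a mean of at least 3. On simulated data for this comparison with 18766 genes, the fit called 95 of 100 genes changed by 1 on the log2 scale. It also called 100 of 100 changed by 2, and 14 unchanged genes. The noise was drawn independently for each gene, so deviations that genes share within the real libraries were not simulated.

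The members and all lists were chosen with earlier results of these data known. Named genes were the members, up to 4 called genes with the largest differences in each pathway list, fixed partner and marker genes, and the 3 genes nearest Cd36 and Lipg. Marker lists also covered mast cell, megakaryocyte, erythroid, stromal and stem cell genes. Alternatives were no filter, a mean of at least 5, no trend, quantile normalization, median centring, the replicate number as a block, and leaving out each library in turn. Figures used matplotlib 3.10.9. Some items are not reported here.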

Additional observations from a re-analysis of the deposited data

How the results depend on the processing

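Leaving out 1 library at a time moved the number of called genes from 2611 to between 1119 and 3475, the lowest without DM replicate 2, then 1185 without WT replicate 1 and 1537 when DM replicate 3 was left out. The 65 called genes of the pathway and companion lists became 33 to 76. Of 47 named genes called, 27 kept their call in all alternatives run, 17 lost it without WT replicate 1 and 20 lost it without DM replicate 2. No named gene that was called changed direction. The differences of the 10 genes moved by less than 1 SD, taken as the root mean square of the WT and DM SDs, under quantile normalization, median centring and each library left out. Several moved by more than the smaller of their group SDs, such as Gpnmb (0.96 to 1.19 without WT replicate 2) and Lipg (-2.48 to -2.78 without DM replicate 3). Replicate numbers were shared between groups, but the labels do not say that a number marks a pair. Deviations of same-numbered libraries correlated over genes at 0.491, 0.116 and 0.041, and WT replicate 3 correlated best with DM replicate 2 (0.124). With the replicate block, 3742 genes were called, 80 of them in the pathway and companion lists. Pparg (0.29, limma adjusted p 0.00808), Treml4, Lgals1 and Mmp8 then met the threshold. Depth limits of low genes are unknown, as the values hold no counts.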

Other observations

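Markers of the other cell types these cultures could hold were read beside the lipid genes. Mast cell and basophil markers had a summed level of 18.9 to 19.26 in WT and 18.91 to 19.39 in DM, and 1 of 10, Hdc, met the rule (-0.62, limma adjusted p 0.0457), but not in 7 of 12 alternatives. Megakaryocyte markers, of a lineage that also expresses Cd36, had a summed level of 14.23 to 14.49 in WT and 14.51 to 14.89 in DM, and 2 of 8 rose. These were Vwf (0.54, limma adjusted p 0.00667) and Gp1ba (0.55, limma adjusted p 0.017, or 0.0625 without DM replicate 2). Of 8 tested erythroid markers 0 met the rule with limma and 0 had an unadjusted p under 0.05, with a summed level of 10.06 to 11.34 in WT and 9.76 to 10.41 in DM. The summed level of stromal markers was 7.89 to 8.12 in WT and lower in every DM library, at 7.73 to 7.8, where Col1a1 (-0.37, limma adjusted p 0.043) and Pdgfrb (-0.36, limma adjusted p 0.00997) fell, the former missing the threshold in 8 of 12 alternatives. Of 10 stem and progenitor markers 2 rose and 2 fell, and their summed level was 15.14 to 15.48 in WT and 15.12 to 15.63 in DM. The genes named here were named after their values were seen, and the part of these cells in the lipid gene values was not tested.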
